A study of Epimedium pubescens with 12 samples.

Results

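The response of leaf microRNAs (miRNAs) to early phosphorus deficiency was examined in Epimedium pubescens, a perennial medicinal herb, by comparing the 30d -P treatment with the 30d +P treatment. All 220 miRNAs of the deposited table were members of the comparison, and 6 of the 12 small RNA libraries belonged to it. The table held 22 known miRNAs in 14 families, which carry the prefix aqc of Aquilegia coerulea, and 198 predicted miRNAs numbered novel_N. The plants were 1-year-old seedlings in sand culture, watered for 30 days with a Hoagland-type nutrient solution that held 0 mmol/L (-P) or 1 mmol/L (+P) inorganic phosphate, in a chamber with the same light and temperature. Leaves were taken before damage from the deficiency was visible, and the remaining 6 libraries came from leaves of the same treatments at 90 days. Each 30d group had 3 biological replicates, lettered A, B and C. A table of miRNAs holds no defining marker of leaf tissue, so the labelled tissue was not checked against markers, and fewer cells of a type and less RNA per cell cannot be told apart in bulk leaves.

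Plant miRNAs are short RNAs, cut from a hairpin precursor, that pair closely with messenger RNAs and lead to their cleavage or reduced translation. The best studied phosphate response of this kind is that of miR399. In Arabidopsis it accumulates when phosphate is scarce, moves through the phloem and represses PHO2, an enzyme that removes phosphate transporters. Other families act in nutrition as well: miR395 controls sulfate transport and assimilation, and miR398 controls copper/zinc superoxide dismutases. Most of the remaining conserved families control transcription factors of leaf growth and phase change.

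No mature sequence of a member was used here. The designed sequences used were forward primers for quantitative PCR of 5 predicted miRNAs. They are shown because they identify novel_124 and novel_269, to which the results below return, and their 3 companions. They are printed in lower case, 5′ to 3′, without capitals, because the bases that belong to the miRNA itself were not marked.
novel_286: gcttgggactcaagctttgtttg
novel_124: cgttctcgtccttcaacctcatc
novel_188: cgccatgttgtcctcttgcttatc
novel_196: ccgtttcattgtctgttctgccc
novel_269: cgcgctttctttgcaggttttgat
The primers were 23 or 24 bases long, and the longest run of bases that any pair of them shared was 5 bases.

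The 30d libraries held 4422844 miRNA counts in all, with totals from 380316 (30d +P B) to 1466897 (30d +P C) and between 146 and 179 miRNAs detected per library. Taking 3 counts as the limit, a miRNA with no count in 30d +P C could have reached 2.05 TPM, and in 30d +P B 7.89 TPM. A minimum count left 137 of the 220 miRNAs for testing (16 known in 11 families and 121 predicted), which held 99.97% of the 30d counts. Levels are given below as scaled CPM, the CPM of a miRNA after its library's total was multiplied by a TMM factor, and these factors lay between 0.793 and 1.85. Libraries of letters A and B resembled their partner of the same letter more than libraries of their own treatment. Within a treatment the libraries correlated at 0.846 to 0.897 (30d -P) and 0.825 to 0.840 (30d +P). The most similar library of 30d +P C was 30d -P B, and that of 30d -P C was 30d -P A. Libraries 30d -P A and 30d +P A were each other's most similar library over the tested miRNAs (r = 0.909), as were 30d -P B and 30d +P B (r = 0.921), whereas 30d -P C and 30d +P C correlated at 0.847. On the first principal component of all 12 libraries, which took 30.1% of the variance, the A and B libraries of 30d lay between -16.1 and -10.9 and the 30d C libraries at 4.21 (-P) and 0.35 (+P), next to the 90d libraries (2.32 to 13.6). Values without the C libraries are therefore given beside several of the results below, but not beside all.

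Known miRNAs supplied most of the counts in both treatments. They took 49.9% of counts (exact Clopper-Pearson 95% interval 49.8 to 50.1) in 30d -P A, 69.3% (69.2 to 69.4) in 30d -P B and 67.5% (67.4 to 67.6) in 30d -P C. In the 30d +P libraries the share was 52.4% (52.2 to 52.5) in A, 65.4% (65.3 to 65.6) in B and 66.2% (66.1 to 66.3) in C. Both A libraries were low and the groups overlapped. The 30d -P mean of 62.2% ± 10.7 stood against 61.3% ± 7.78 in 30d +P (SD, n = 3 each), a difference of 0.916 percentage points with an exact two-sided permutation p of 0.8, where 0.1 is the smallest that 3 against 3 can give. Most of this share was the miR166 family, at 56.7% ± 9.87 of counts in 30d -P against 56.0% ± 8.31 in 30d +P (SD, n = 3).

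No miRNA passed an adjusted p under 0.05 at 30d. In the edgeR quasi-likelihood test 0 of 137 were called (0% of those tested), the smallest adjusted p was 0.962, and 5 had an unadjusted p under 0.05. DESeq2 and limma also called 0 after adjustment. A looser rule, called the unadjusted rule below, asks for an edgeR p under 0.05 before adjustment and a log2 fold change of 1 or more in size. By this rule 5 predicted miRNAs (3.65% of those tested) and no known miRNA passed: novel_36, novel_61 and novel_56 were higher in 30d -P (2.19%) and novel_33 and novel_269 were lower (1.46%). DESeq2 gave 10 of 137 tested by this rule on 12 libraries and 7 of 108 tested on the 6 libraries of 30d. With limma 9 of 137 passed.

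Differences of this size stood against a wide spread between replicates. The common dispersion of the edgeR fit was 0.748, a biological coefficient of variation of 86.5%. Across the 137 tested miRNAs the median log2 fold change was -0.15, with 61 above 0 and 76 below, and the median standard error (SE) was 1.02. The 95% interval of a fold change had a median half-width of 2.19 on the log2 scale. It lay within -1 to 1 for 0 miRNAs and covered the whole of that range for 102. A log2 fold change of 1 or more in size was therefore common without a call: 45 miRNAs reached it, 19 higher and 26 lower in 30d -P, and 3 of them were known (aqc-miR398a, aqc-miR398b and aqc-miR399).

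The same comparison was made in each library's own values. For every miRNA the mean difference in log2(scaled CPM + 1) between 30d -P and 30d +P was set against the standard deviation (SD) between replicates, pooled over both groups. The median SD was 1.28 and the median absolute difference 0.624. The difference exceeded the SD in 25 of 137 miRNAs, all of them predicted, and exceeded 2 SD in 1, novel_36, at 2.08 SD. Among known miRNAs aqc-miR398b came closest, at 0.895 SD. This SD is unpaired and includes the spread of levels between letters, which the differences within letters given below leave out. The counts and the order given here therefore hold for the unpaired SD only. The spread was somewhat narrower in abundant miRNAs: the median SD was 1.41 for the 18 miRNAs under 10 scaled CPM, 1.5 for 60 between 10 and 100, 1.11 for 33 between 100 and 1000, and 1.00 for 26 over 1000.

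**Figure D1:**
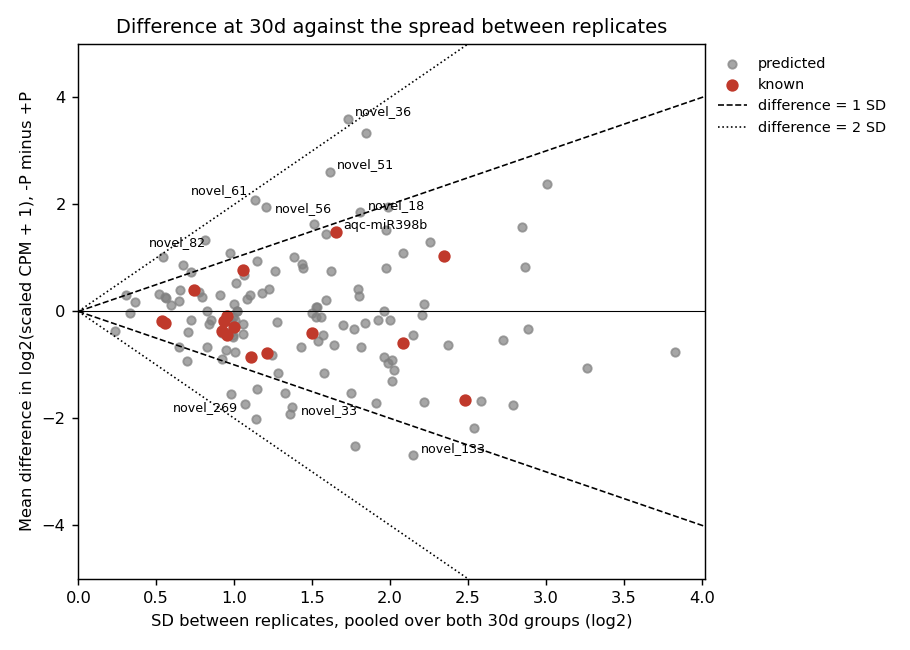
Mean difference in log2(scaled CPM + 1), 30d -P minus 30d +P (vertical axis), against the SD between replicates pooled over both 30d groups (horizontal axis), 1 point for each of the 137 tested miRNAs. Known miRNAs (red) all lie between the dashed lines at 1 SD, and novel_36, at 2.08 SD, is the only point beyond the dotted lines at 2 SD.

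Among the known families the miR399 member is the one tied most closely to phosphate. aqc-miR399 was scarce, with 5, 15 and 3 counts in 30d -P A, B and C and 2, 3 and 10 counts in 30d +P A, B and C. These counts correspond to 5.65, 24.7 and 4.24 scaled CPM in 30d -P and to 1.88, 6.37 and 7.32 scaled CPM in 30d +P. Only 30d -P B stood above the range of the +P libraries, and the groups overlapped. The log2 difference was 1.21 in letter A, 1.80 in letter B and -0.67 in letter C. Its log2 fold change was 1.13 (SE 1.02, 95% interval -1.11 to 3.37, adjusted p = 0.986 by edgeR). Without 30d -P B it was 0.22, and with the C libraries left out it was 1.82. These were the lowest and highest values of the 17 alternatives that tested aqc-miR399. All of them kept the sign, and none gave an adjusted p under 0.05. The other phosphate families looked for, miR827, miR2111 and miR778, had no row in the table, nor had miR397 and miR408 of the copper response.

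The sulfate family miR395 had 1 member, aqc-miR395b, whose letters differed in direction. Levels were 48.6, 14.8 and 62.1 scaled CPM in 30d -P A, B and C and 15.0, 193 and 35.8 in 30d +P A, B and C. The order of the treatments in B was opposite to that in A and C. The ratio of -P to +P was 3.23 in letter A (95% counting interval 1.78 to 6.15), 0.0767 in letter B (0.0340 to 0.152) and 1.73 in letter C (1.13 to 2.66), so each letter's difference exceeded counting error in its own direction. The log2 fold change was -0.94 (SE 1.10, adjusted p = 0.986), and leaving out 1 library in turn moved it between -1.17 and 0.86.

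The superoxide dismutase family miR398 showed the largest fold change of the known miRNAs. aqc-miR398b lay at 2245, 10718 and 39005 scaled CPM in 30d -P A, B and C and at 6016, 4911 and 1468 in 30d +P A, B and C. Library 30d -P C was by far the highest and 30d +P C the lowest, while 30d -P A fell inside the +P range, so the groups overlapped. Means were 17323 ± 19250 in 30d -P and 4131 ± 2372 in 30d +P (SD, n = 3). The log2 difference ran from -1.42 in A through 1.13 in B to 4.73 in C, and the log2 fold change was 2.07 (SE 1.21, 95% interval -0.54 to 4.67, adjusted p = 0.962). With the C libraries left out it was -0.16, and without 30d -P C alone it was 0.39. Its minor partner aqc-miR398a, at 9.05, 110 and 222 scaled CPM in 30d -P and 3.76, 91.3 and 65.1 in 30d +P, was higher in all 3 letters (1.08, 0.27 and 1.75), with a log2 fold change of 1.10 (SE 1.31). With the C libraries left out the log2 fold change was 0.34, and without 30d -P C alone it was 0.03. The common direction was lost when library totals or RLE size factors were used for scaling.

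The miR166 family, which controls HD-ZIP III transcription factors of leaf polarity, dominated every library. aqc-miR166e lay at 233731, 667676 and 495867 scaled CPM in 30d -P A, B and C and at 191091, 351711 and 500826 in 30d +P. The A libraries were lowest in both treatments and the groups overlapped, with a log2 fold change of 0.42 (SE 0.45). aqc-miR166c lay at 26235, 100141 and 99413 in 30d -P and at 46747, 116984 and 117847 in 30d +P. It was lower in each letter (-0.83, -0.22 and -0.25), a direction kept under library totals and RLE, although the log2 fold change of -0.32 was smaller than its SE of 0.65. For aqc-miR166a the log2 fold change was -0.23 (SE 0.62). Its share of counts, 2.06% ± 0.188 in 30d -P against 2.76% ± 0.394 in 30d +P (SD, n = 3), did not overlap between the groups (exact permutation p = 0.1, the smallest possible), whereas its scaled CPM did.

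The balance within this family was also compared, because a ratio of 2 miRNAs in the same library does not depend on scaling. Of the counts that aqc-miR166e and aqc-miR166c held together, aqc-miR166e took 89.9% (95% interval 89.8 to 90.0) in 30d -P A, 87.0% (86.9 to 87.1) in 30d -P B and 83.3% (83.2 to 83.4) in 30d -P C. It took 80.3% (80.2 to 80.5) in 30d +P A, 75.04% (74.9 to 75.2) in 30d +P B and 81.0% (80.9 to 81.0) in 30d +P C. All 3 libraries of 30d -P were above all 3 of 30d +P, and the gap was narrowest in C. This pair was singled out from 5 pairs after its values were seen, so no test is given, and how reads shared by family members were divided is not given in the sources used here.

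Families that control leaf growth and development differed between letters in both directions. For miR396, which represses growth-regulating factors, aqc-miR396b lay at 20243, 58261 and 11304 scaled CPM in 30d -P A, B and C and at 21474, 21572 and 52803 in 30d +P. The -P libraries held both the highest and the lowest value. Its log2 difference was 1.43 in letter B and -2.22 in letter C, and aqc-miR396a moved with it (0.99 in B and -1.70 in C). The log2 fold changes were -0.09 (aqc-miR396b) and 0.13 (aqc-miR396a). With the C libraries left out they were 0.64 and 0.63. The TCP regulator aqc-miR319 kept close to 1 level in each letter (-0.11, 0.23 and -0.38), with 512, 887 and 199 scaled CPM in 30d -P and 552, 756 and 259 in 30d +P.

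Both members of miR171, which represses GRAS-domain transcription factors of the meristem, had lower levels in 30d -P C than in 30d +P C. aqc-miR171f lay at 55.4, 227 and 48.0 scaled CPM in 30d -P A, B and C and at 76.2, 295 and 161 in 30d +P. It was lower in every letter (-0.45, -0.38 and -1.72) under TMM, library totals and RLE, but the groups overlapped and the log2 fold change was -0.69 (SE 0.90, adjusted p = 0.986). With the C libraries left out it was -0.395, and leaving out 1 library in turn moved it between -1.47 and -0.33. aqc-miR171a, at 18.1, 62.5 and 11.3 in 30d -P and 17.9, 97.7 and 38.8 in 30d +P, gave -0.74 (SE 0.97).

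Both miRNAs of the phase change pathway were scarce. aqc-miR156b, which represses SPL transcription factors and holds plants in the juvenile phase, had too few counts to be tested. Its counts were 6, 5 and 8 in 30d -P A, B and C and 4, 1 and 5 in 30d +P A, B and C. In scaled CPM the 3 -P libraries (6.79, 8.23 and 11.3) were above the 3 +P libraries (3.76, 2.12 and 3.66), the only known family whose groups did not overlap, with an exact permutation p of 0.1 (adjusted over 14 families 0.969). The counting interval of its ratio included 1 in each letter (its lower bound was 0.428 in A, 0.434 in B and 0.891 in C), and the groups overlapped when library totals were used. aqc-miR172a, which represses AP2-like factors and acts later than miR156, lay at 4.52, 32.9 and 1.41 scaled CPM in 30d -P and at 6.58, 61.6 and 2.19 in 30d +P. It was lower in each letter under all 3 scalings (-0.46, -0.88 and -0.41 with TMM). These differences were far smaller than the SD of 2.08 between letters of a treatment, a spread that comparison within a letter leaves out. They rested on few counts: 4 in -P against 7 in +P in A, 20 against 29 in B and 1 against 3 in C.

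Among the remaining known miRNAs, aqc-miR159, a regulator of GAMYB factors, had a log2 fold change of -0.30 (SE 0.97). aqc-miR160b, a regulator of auxin response factors, lay at 17.0, 72.4 and 15.5 scaled CPM in 30d -P A, B and C and at 23.5, 38.2 and 46.8 in 30d +P. Its letters differed in both directions (-0.45, 0.90 and -1.53), and its log2 fold change was -0.05 (SE 0.80). aqc-miR477e had 35, 57 and 0 counts in 30d -P A, B and C and 42, 30 and 62 counts in 30d +P. The 0 in 30d -P C, which allows up to 4.27 TPM, gave a log2 difference of -5.53, against 0.00 in A and 0.55 in B. The 3 members of miR169, a family that represses NF-YA factors, had 8 counts between them in the 6 libraries, aqc-miR172b had 1 count, in 30d -P A, and aqc-miR535 had 1 count, in 30d +P B.

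**Figure D2:**
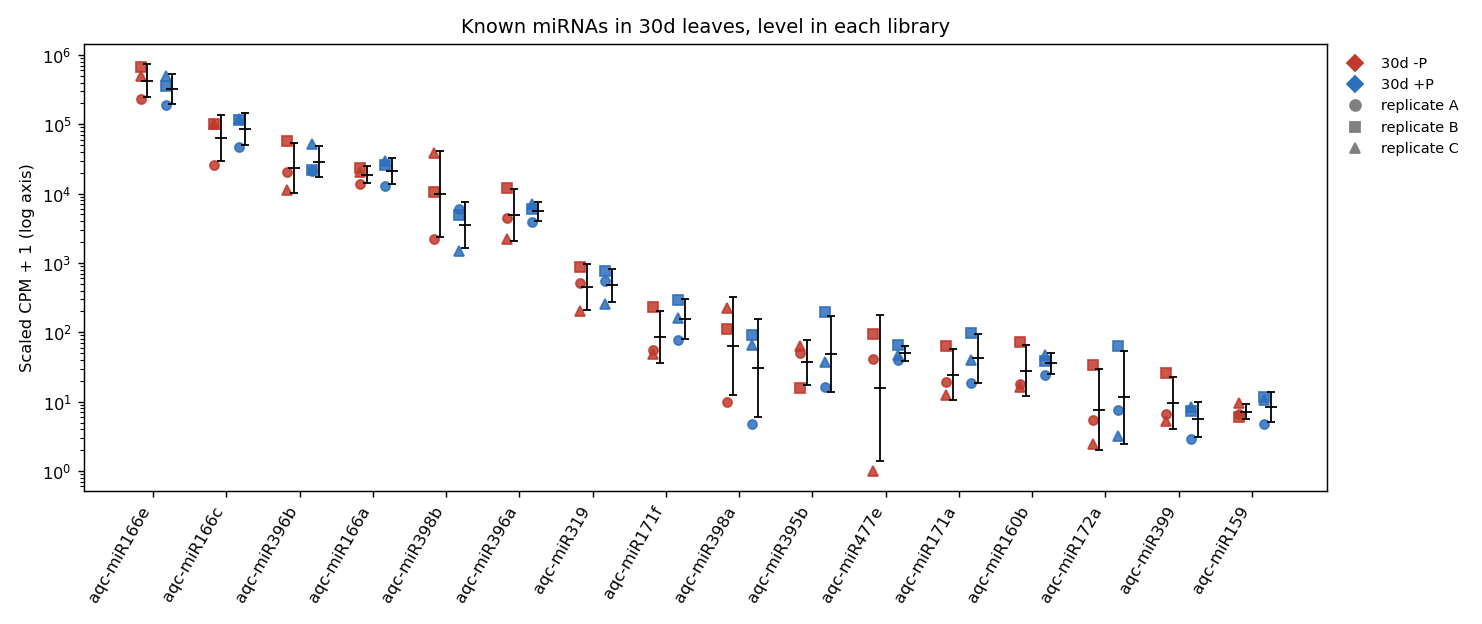
Scaled CPM + 1 on a log axis for the 16 tested known miRNAs in each 30d library, with 30d -P in red and 30d +P in blue, the symbol giving the replicate letter and the black bars the mean ± SD of the log values (n = 3). The levels run from aqc-miR166e, at 191091 to 667676 scaled CPM, down to single libraries at 0 (aqc-miR477e in 30d -P C) and 1.41 (aqc-miR172a in 30d -P C), and for every miRNA shown the red and blue points overlap.

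**Figure D3:**
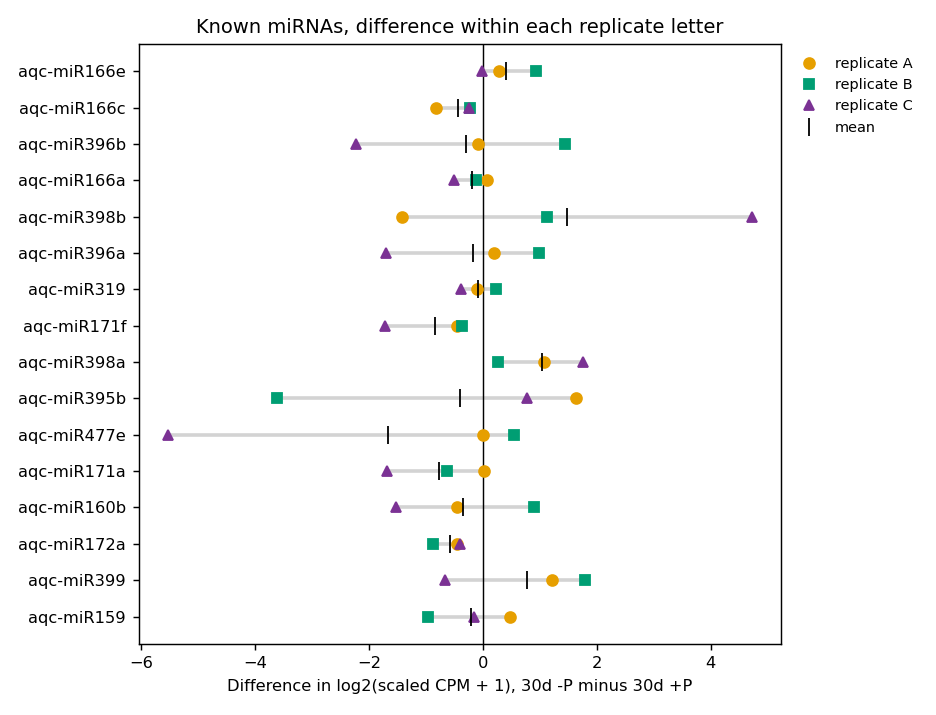
Difference in log2(scaled CPM + 1), 30d -P minus 30d +P, within each replicate letter for the same 16 known miRNAs, with the mean as a vertical tick. Points of aqc-miR398b run from -1.42 to 4.73 and those of aqc-miR395b from -3.62 to 1.63, while 4 miRNAs have all 3 points on the same side of 0.

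The largest difference of all tested miRNAs was that of the predicted novel_36. Its levels were 952, 339 and 3927 scaled CPM in 30d -P A, B and C and 210, 142 and 22.7 in 30d +P A, B and C. Every -P library was above every +P library, and the C libraries were the extremes of both groups. The log2 difference was 2.18 in A, 1.25 in B and 7.37 in C, and the log2 fold change was 3.80 (SE 1.32, 95% interval 0.96 to 6.64, unadjusted p = 0.0124 and adjusted p = 0.962 by edgeR). With the C libraries left out the log2 fold change was 2.15 and the miRNA no longer passed the unadjusted rule. With replicate letter as a block it was 3.16 (unadjusted p = 0.116 by edgeR).

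The letters agreed more closely for novel_61. It lay at 80.3, 453 and 110 scaled CPM in 30d -P A, B and C and at 28.2, 76.4 and 22.7 in 30d +P. Groups did not overlap, and B was the highest letter in both treatments. Differences of 1.48, 2.55 and 2.23 went with a log2 fold change of 2.35 (SE 0.93, unadjusted p = 0.0244, adjusted p = 0.962 by edgeR), which was 2.12 with the replicate block (unadjusted p = 0.0240).

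For novel_56 the levels were 468, 1236 and 208 scaled CPM in 30d -P and 64.9, 299 and 105 in 30d +P. The lowest -P library, C, was below the highest +P library, B, so the groups overlapped, although each letter was higher in -P (2.83, 2.04 and 0.98). Its log2 fold change was 2.03 (SE 0.91, unadjusted p = 0.0435, adjusted p = 0.962 by edgeR).

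Of the miRNAs with lower levels in 30d -P, novel_33 was the more abundant. It lay at 122, 482 and 564 scaled CPM in 30d -P A, B and C and at 413, 991 and 3327 in 30d +P. Each letter was lower by more than 1 on the log2 scale (-1.75, -1.04 and -2.56), yet 30d +P A was below 30d -P B and C. The log2 fold change was -2.02 (SE 0.91, unadjusted p = 0.0448, adjusted p = 0.962 by edgeR) and -1.79 with the block (unadjusted p = 0.0168). With the C libraries left out it was -1.31.

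The other, novel_269, whose primer is printed above, rested on few counts: 1, 1 and 2 in 30d -P A, B and C and 2, 7 and 22 in 30d +P A, B and C. Its levels were 1.13, 1.65 and 2.82 scaled CPM in 30d -P and 1.88, 14.9 and 16.1 in 30d +P. Letter A did not differ beyond counting error (ratio 0.601, 95% counting interval 0.0102 to 11.6), whereas B (0.111, 0.00246 to 0.862) and C (0.176, 0.02 to 0.714) did. The log2 fold change was -2.47 (SE 1.10, unadjusted p = 0.0426, adjusted p = 0.962 by edgeR). novel_269 passed the filter with all 12 libraries, but not in the fits on the 6 libraries of 30d.

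**Figure D4:**
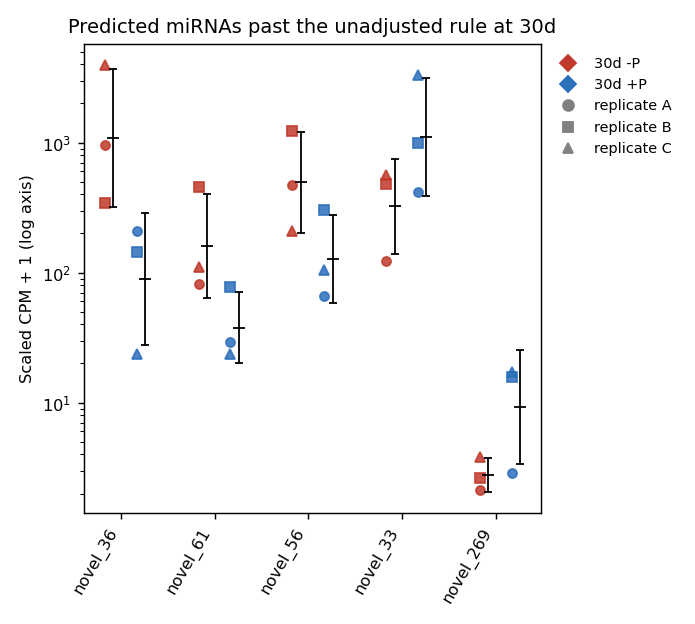
Scaled CPM + 1 on a log axis in each 30d library for the 5 predicted miRNAs past the unadjusted rule, with 30d -P in red and 30d +P in blue, the symbol giving the letter and the bars the mean ± SD of the log values (n = 3). Red and blue points are apart for novel_36 and novel_61 and overlap for novel_56, novel_33 and novel_269.

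Which miRNAs passed this rule depended on single libraries. Without 30d +P C, 3 of 144 tested miRNAs passed and none of the 5 was among them. Without 30d -P A, B or C the rule gave 8 of 145, 2 of 150 and 8 of 150 tested, of which 2, 1 and 3 were among the 5. Without 30d +P A or B it gave 7 of 143 and 11 of 149 tested, of which 4 and 3 were. With both C libraries left out it gave 4 of 145 tested, and novel_56 and novel_61 were among them. Across all 21 alternatives the log2 fold change kept its sign for each of the 5. It ran from 2.15 to 4.92 for novel_36, from 1.44 to 2.58 for novel_61 and from 1.46 to 2.75 for novel_56. For novel_33 the range was -2.51 to -1.03, and for novel_269, in the 17 alternatives that tested it, -2.82 to -0.82. The 5 were picked by their fold changes in these same libraries, so a kept sign is no separate support. Scaling mattered for the balance of directions, because library totals and RLE moved the median over the 137 log2 fold changes by -0.26 and -0.13. Library totals gave 2 higher and 3 lower by the rule, and RLE 3 and 3.

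The groups did not overlap for 4 of 137 tested miRNAs (2.92%), and none was known. Of these, novel_36, novel_61 and novel_82 were higher in 30d -P and novel_54 was lower. The levels of novel_82 were 78.0, 70.8 and 79.1 scaled CPM in 30d -P and 23.5, 31.8 and 67.3 in 30d +P, and its log2 fold change was 0.89 (SE 0.80). For novel_54 the levels were 552, 436 and 586 in 30d -P and 607, 813 and 612 in 30d +P, and the log2 fold change was -0.37 (SE 1.05). Both sets of -P libraries were tight, but their distance from the +P libraries was small. With library totals 6 miRNAs did not overlap (1 higher and 5 lower) and with RLE 3 (1 higher and 2 lower), and novel_61 was the only one of the 4 among them in either case.

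The treatments were then compared between the libraries that carry the same letter. All 3 letters had the same sign in 28 of the 137 tested miRNAs (20.4%), with 12 higher in 30d -P (8.76%) and 16 lower (11.7%). Known miRNAs made up 4 of the 28, that is, 25% of the 16 known miRNAs tested against 19.8% of the 121 predicted. Under library totals 43 had the same sign in every letter (9 higher and 34 lower) and under RLE 40 (11 higher and 29 lower). A common sign under all 3 scalings was found in 23, of which 8 were higher and 15 lower. The known members of this set were aqc-miR166c, aqc-miR171f and aqc-miR172a, all lower. The counting interval of the ratio included 1 for aqc-miR172a in A (0.148 to 2.70) and C (0.0123 to 8.01). For aqc-miR171f it included 1 in A (0.500 to 1.05). It excluded 1 in their other letters and in every letter of aqc-miR166c. The number of miRNAs with a common sign was not tested.

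After TMM scaling, a difference beyond 1 on the log2 scale in every letter was rarer, and was found in 4 of the 137 tested miRNAs. These were novel_36 and novel_61 (higher) and novel_33 and novel_133 (lower). Under library totals and RLE each of them kept its direction in every letter. Whether the differences also stayed beyond 1 under those scalings was not tested. The levels of novel_133 were 2.26, 13.2 and 0 scaled CPM in 30d -P A, B and C and 31.0, 97.7 and 2.93 in 30d +P. Each letter had its own level, and within each the -P library was the lower (-3.30, -2.80 and -1.97), while across letters the groups overlapped. Its log2 fold change was -3.08 (SE 1.65, unadjusted p = 0.0837 by edgeR). With the replicate block it was -3.35 and passed the unadjusted rule (unadjusted p = 0.0139 by edgeR). In that blocked fit 6 miRNAs passed the rule (4.38% of those tested), novel_56 and novel_61 higher and novel_33, novel_133, novel_214 and novel_269 lower, and again 0 had an adjusted p under 0.05 (smallest 0.968).

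**Figure D5:**
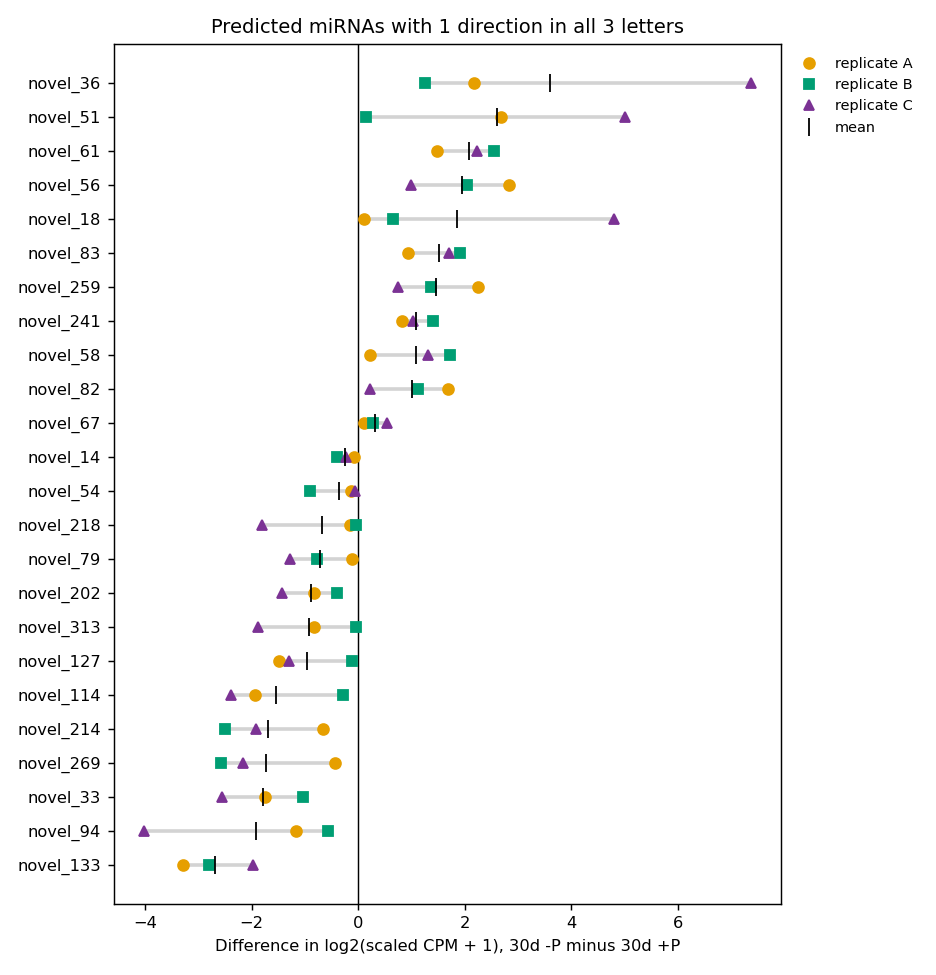
Difference in log2(scaled CPM + 1), 30d -P minus 30d +P, within letters A, B and C for the 24 predicted miRNAs whose letters all had the same sign, ordered by the mean (vertical tick). The 11 at the top are higher and the 13 at the bottom lower in 30d -P, and the widest spread between letters is that of novel_36, from 1.25 to 7.37.

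Over all tested miRNAs the letters shared little of their direction. The median log2 difference over the 137 miRNAs was -0.11 in A, 0.27 in B and -0.28 in C. Differences beyond 1 on the log2 scale numbered 56 in A (19 higher and 37 lower), 60 in B (41 and 19) and 86 in C (35 and 51) after TMM scaling. The direction in B depended on that scaling. With library totals the medians were -0.27 in A, -0.37 in B and -0.17 in C, and B had 24 higher and 38 lower differences beyond 1. With RLE they were -0.29, -0.055 and -0.070, with 31 higher and 27 lower in B. Across the 137 miRNAs, which share libraries and their depths, the differences in A and B correlated at -0.0172, those in A and C at 0.164 and those in B and C at -0.117 (Pearson r, given as a description). In 38 miRNAs 1 letter was at 1 or above and another at -1 or below, and in 10 of these the limits were 2 and -2.

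The largest of these opposed differences were seen in miRNAs that were nearly absent from single libraries. For novel_189 the counts were 48, 109 and 0 in 30d -P A, B and C and 1, 47 and 338 in 30d +P, which gave 4.83 in A and -7.96 in C. For novel_162 they were 0, 42 and 45 in 30d -P and 111, 1 and 169 in 30d +P, which gave -6.72 in A and 4.49 in B. An abundant example was novel_4, with 29334, 89849 and 13576 scaled CPM in 30d -P and 21145, 15209 and 54096 in 30d +P. Its difference was 2.56 in B and -1.99 in C, and its log2 fold change was 0.55 (SE 0.66). With the C libraries left out the log2 fold change was 1.39, and novel_4 then passed the unadjusted rule. These 3 examples were picked with their values known, except that novel_4 was also among the 5 most abundant predicted miRNAs.

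Of the other abundant predicted miRNAs, novel_1, novel_2 and novel_3 had letter differences below 1 in size, while their levels varied between libraries. novel_1, at 12.4% ± 3.31 of counts in 30d -P and 13.0% ± 3.15 in 30d +P (SD, n = 3), had letter differences of 0.43, 0.14 and -0.07 and a log2 fold change of 0.15 (SE 0.45). For novel_2 the letter differences were 0.65, 0.38 and -0.07, and for novel_3 they were -0.09, 0.03 and 0.39. novel_3 took 13.9%, 3.38% and 5.11% of counts in 30d -P A, B and C. In 30d +P A, B and C it took 16.5%, 5.16% and 3.59%. Its log2 fold change of 0.06 changed sign in 11 of 21 alternatives, which ran from -0.94 to 1.22. novel_5 stood apart by letter, with 12424 scaled CPM in 30d -P C and 15286 in 30d +P C against 1256 to 2358 in the A and B libraries of both treatments. Its level thus followed the C libraries, and its log2 fold change between treatments was -0.27 (SE 0.89).

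Of the 5 miRNAs with a printed primer, only novel_196 had 10 or more counts in each 30d library. novel_124 had 0, 0 and 0 counts in 30d -P A, B and C and 0, 38 and 3 counts in 30d +P, and did not pass the filter on low counts. Pooled over each group, the level in 30d -P was lower by a factor of at least 11.3 (3 counts over the pooled group, 1.5 TPM, against 16.9 TPM), and nearly all of that came from 1 library: without 30d +P B the +P group was at 1.47 TPM, under that floor. novel_286 had 17, 3 and 16 counts in 30d -P and 29, 0 and 1 in 30d +P, with opposite signs in A (-0.48) and in B and C (2.57 and 3.77). Counts of novel_196 were 15, 57 and 42 in 30d -P and 53, 10 and 185 in 30d +P, higher in B and lower in A and C. novel_188 had 1 count in each A library and none elsewhere. Of these 5 miRNAs novel_124 and novel_188 were not tested in the main setting, and of the rest only novel_269 passed the unadjusted rule there. With no filter, novel_124 was among the 12 miRNAs that passed, and novel_269 was not. Without 30d +P A, novel_286 and novel_269 both passed.

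The 83 miRNAs that were not tested held the remainder of the counts. At 30d 74 of them had at least 1 count and 9 had none, 25 were counted in 1 library only, and 3 were counted in all 6. The most abundant, novel_227, had 1, 0 and 1 counts in 30d -P and 46, 0 and 74 in 30d +P, and novel_111 had 104 counts, all in 30d -P C. Groups did not overlap for 2 of the 83, aqc-miR156b (above) and novel_131, which had 0, 0 and 1 counts in 30d -P A, B and C and 4, 5 and 10 in 30d +P. No miRNA was counted in every library of 1 treatment and absent from all of the other.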

How the data were processed

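Leaves labelled 30d -P and 30d +P (3 libraries each, letters A, B and C, NEBNext kit for small RNA) were compared. According to the methods, the authors removed adapter, low-quality, rRNA, tRNA, snRNA and repeat reads and predicted miRNAs from hairpins with miREvo and mirdeep2. The submitters' processing notes name Bowtie and DESeq2. Not given in the sources used here were aligner settings, genome build and miRBase release. Raw read counts per miRNA for the 12 libraries were deposited by the authors, with TPM values, which equal the count divided by the library's total in the table with no term for length, and mean counts of each group, which were not used. Without molecular identifiers, counts include PCR copies, and intervals and floors (3 counts) cover counting error only. Totals ranged from 380316 to 1466897 counts per 30d library.

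The deposited counts were tested with the older quasi-likelihood F test of edgeR 4.0.16 in R 4.3.3 on 1 model of 4 groups over 12 libraries, with TMM scaling, filterByExpr (minimum count 10), two-sided p-values and Benjamini-Hochberg adjustment over 137 miRNAs. The unadjusted rule (p under 0.05 and a log2 fold change of 1 or more in size) is the study's own for miRNAs. Its tool DESeq2 (1.42.0 here) and limma 3.58.1 served as alternatives, as did RLE, TMMwsp and total scaling, other filters, a fit of 6 libraries, a replicate block, and leaving out libraries. The procedure was run on simulated data, where recovery of changed miRNAs was required only at a dispersion far below that of these data. Per-library differences used log2(scaled CPM + 1). Family totals and shares were compared by exact permutation tests. Ratios within a letter have exact 95% counting intervals.

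The letters were taken as pairs because same-letter deviations from the group means correlated at 0.449 (A), 0.228 (B) and 0.237 (C) over 137 miRNAs, all above the limit of 0.1. Different letters correlated at -0.326 to 0.0253. Deviations from a group mean sum to 0, so positive same-letter values in themselves lower the values for different letters. This pairing comes from the data, and the labels give the letters only.

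Named miRNAs were all known ones, the 5 most abundant predicted ones, those past the unadjusted rule, up to 5 higher and 5 lower with groups not overlapping and letters of the same sign, those absent from 1 treatment only, and the 5 with a primer. All others named were chosen after their values were seen. Members, lists and tests were chosen with earlier results of these data known.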

Additional observations from a re-analysis of the deposited data

How the results depend on the processing

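No alternative gave an adjusted p under 0.05 for any miRNA (lowest 0.179, DESeq2 on 6 libraries). The unadjusted rule gave 5 of 137 tested miRNAs in the main setting and 12 of 220 with no filter. It gave 10 of 137 with either the newer edgeR method or DESeq2 (12 libraries), and 9 of 137 with limma at either pseudocount. On 6 libraries edgeR gave 2 of 108, and 3 of 108 with a replicate block. The replicate block on 12 libraries gave 6 of 137. With 1 library left out the rule gave 2 to 11, with 143 to 150 tested. Library totals raised the miRNAs with 1 sign in all letters from 28 to 43 and lowered the known families with groups apart from 1 to 0, and leaving out a library gave 1 to 4. The difference in the known share, 0.916 percentage points, was -4.56 without aqc-miR166e and ran from -3.57 to 7.07 with 1 library left out. Other settings kept these counts within 1.5 times, and the replicate block changed no adjusted call. The causes were not tested.

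Some log2 fold changes changed sign, none of which had passed a threshold in the main setting. In alternatives some of these miRNAs passed the unadjusted rule, though not after adjustment. These were novel_4 with letters A and B only, novel_5 without 30d -P C and novel_286 without 30d +P A. With no filter the values were 0.10 (aqc-miR159), 0.19 (aqc-miR160b), 0.11 (aqc-miR166a), 0.18 (aqc-miR396b), 0.12 (aqc-miR477e) and 0.10 (novel_5). With letters A and B only the values were 0.33 (aqc-miR160b), 0.051 (aqc-miR166a), 0.64 (aqc-miR396b), -0.16 (aqc-miR398b), 0.32 (aqc-miR477e), 0.068 (novel_196) and -0.20 (novel_286). With RLE the values were -0.19 (aqc-miR319), -0.044 (aqc-miR396a) and -0.10 (novel_3). With library totals the values were -0.33 (aqc-miR319), -0.16 (aqc-miR396a), -0.061 (novel_1) and -0.18 (novel_3). With TMMwsp the values were -0.10 (aqc-miR319), -0.006 (novel_3) and 0.036 (novel_5). With totals without aqc-miR166e the values were -0.17 (aqc-miR319), -0.008 (aqc-miR396a) and -0.05 (novel_3). With the stricter filter the values were -0.19 (aqc-miR319) and -0.071 (aqc-miR396a). With DESeq2 on 12 libraries the values were -0.19 (aqc-miR319), -0.044 (aqc-miR396a) and -0.10 (novel_3). With DESeq2 on 6 libraries the values were -0.15 (aqc-miR319), -0.025 (aqc-miR396a) and -0.067 (novel_3). With limma with a pseudocount of 1 the values were -0.31 (aqc-miR319), -0.40 (aqc-miR396a), -0.063 (novel_1) and -0.12 (novel_3). With limma with a pseudocount of 10 the values were -0.31 (aqc-miR319), -0.40 (aqc-miR396a), -0.063 (novel_1) and -0.12 (novel_3). With edgeR on 6 libraries the values were -0.18 (aqc-miR319) and -0.075 (aqc-miR396a). With the block on 12 libraries the values were -0.085 (aqc-miR319) and -0.15 (aqc-miR396a). With the block on 6 libraries the values were -0.15 (aqc-miR319), 0.012 (aqc-miR395b) and -0.23 (aqc-miR396a). With 1 library left out the range was -0.50 to 0.094 (aqc-miR159), -0.90 to 0.17 (aqc-miR160b), -0.36 to 0.01 (aqc-miR166a), -2.48 to 0.93 (aqc-miR172a), -0.47 to 0.61 (aqc-miR319), -1.17 to 0.86 (aqc-miR395b), -0.53 to 0.42 (aqc-miR396a), -0.78 to 0.22 (aqc-miR396b), -1.01 to 0.33 (aqc-miR477e), -0.14 to 0.50 (novel_1), -0.97 to 0.061 (novel_196), -0.13 to 0.67 (novel_2), -0.41 to 5.26 (novel_286), -0.94 to 1.22 (novel_3), -0.26 to 0.93 (novel_4), -1.88 to 1.02 (novel_5) and -0.84 to 0.15 (novel_54).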
